A study of Mus musculus with 32 samples.

Results

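The Pax family comprises 9 genes of the mouse, Pax1 to Pax9, and all 9 were found by symbol among the 55414 Ensembl gene identifiers of the count table, each at 1 identifier. They were taken whatever their counts, with Pax6, Pax2, Pax5 and Pax8 as the neural and boundary members and Pax1 and Pax9 as the sclerotome members. Pax3 and Pax7 belong to both sides, and Pax4 to the pancreas. Messenger RNA was counted by its 3′ tags in whole mouse embryos freed from the yolk sac, from E8.5 over E9.5 to E10.5 in embryonic days. Commd10Null embryos are homozygous for the transgene insertion of B6.Cg-Commd10Tg(Vav1-icre)A2Kio/J mice, in which Vav1-iCre lies in an intron of Commd10. They numbered 3 libraries at each stage, and WT embryos from the same intercrosses of heterozygous parents numbered 10 libraries at E8.5, 9 at E9.5 and 4 at E10.5. Commd10Null embryos carry the iCre cassette, driven by the blood-cell promoter Vav1, while WT embryos do not, so that effects of the cassette and of the altered Commd10 cannot be told apart. The study calls the libraries biological repeats. The sources used here do not say whether each is 1 embryo, and p-values then measure only the spread between these libraries.

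Pax proteins are transcription factors that bind DNA through a paired domain, and each is switched on early in its own territories of the embryo. Pax6 marks the forebrain, eye and part of the hindbrain and spinal cord, Pax2, Pax5 and Pax8 mark the midbrain-hindbrain boundary, the ear and the kidney line, and Pax3 and Pax7 mark the dorsal neural tube, the neural crest and the dermomyotome of the somite. Pax1 and Pax9 are close relatives expressed in the sclerotome, from which vertebrae form, and in the endoderm of the pharyngeal pouches, while Pax4 acts in endocrine cells of the pancreas.

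The members lie apart in the genome, in GRCm38 coordinates. Pax6 (ENSMUSG00000027168) is at chr2:105668900-105697364 on the plus strand, Pax3 (ENSMUSG00000004872) at chr1:78101267-78197134 on the minus strand and Pax7 (ENSMUSG00000028736) at chr4:139737062-139833528 on the minus strand. Pax2 (ENSMUSG00000004231) is at chr19:44756045-44837871 on the plus strand, Pax5 (ENSMUSG00000014030) at chr4:44524757-44710487 on the minus strand and Pax8 (ENSMUSG00000026976) at chr2:24420560-24475599 on the minus strand. Pax1 (ENSMUSG00000037034) is at chr2:147361925-147393295 on the plus strand, Pax9 (ENSMUSG00000001497) at chr12:56691767-56712822 on the plus strand and Pax4 (ENSMUSG00000029706) at chr6:28442334-28449353 on the minus strand. Over the 32 libraries, Pax6 had 6142 counts, Pax3 5813, Pax1 3096, Pax9 2143, Pax5 1959, Pax7 1764, Pax2 877, Pax8 495 and Pax4 1.

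Promoter sequence is shown for the member with the largest genotype difference, Pax6, and for the pair of close relatives whose genotype differences at E10.5 had opposite signs, Pax1 and Pax9. These are the 250 bases before an annotated RefSeq start on the plus strand of GRCm38.p6, at chr2:105668646-105668895 for Pax6, chr2:147364744-147364993 for Pax1 and chr12:56695221-56695470 for Pax9. Each is written 5′ to 3′ with the motif CCAAT in capitals. The stretches of Pax1 and Pax9 lie inside the gene spans given above, downstream of the annotated gene starts, and so belong to internal starts.
Pax6: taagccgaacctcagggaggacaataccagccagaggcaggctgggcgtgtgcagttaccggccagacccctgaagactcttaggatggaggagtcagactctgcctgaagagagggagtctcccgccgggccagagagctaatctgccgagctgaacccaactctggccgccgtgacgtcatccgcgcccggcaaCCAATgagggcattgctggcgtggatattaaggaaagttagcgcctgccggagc
Pax1: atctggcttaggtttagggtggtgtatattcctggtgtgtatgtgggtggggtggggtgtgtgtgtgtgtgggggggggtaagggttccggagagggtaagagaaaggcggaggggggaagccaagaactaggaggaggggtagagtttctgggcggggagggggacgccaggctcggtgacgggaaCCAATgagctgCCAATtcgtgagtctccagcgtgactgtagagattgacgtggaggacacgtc
Pax9: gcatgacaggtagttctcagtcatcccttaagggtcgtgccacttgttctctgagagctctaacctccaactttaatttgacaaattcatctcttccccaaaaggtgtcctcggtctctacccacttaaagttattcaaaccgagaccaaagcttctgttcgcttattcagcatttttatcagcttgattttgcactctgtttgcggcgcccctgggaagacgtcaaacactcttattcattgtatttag
The Pax6 promoter shown has CCAAT once, starting 54 bases before the start site, the Pax1 promoter has it at 63 and 52 bases before it, and the Pax9 promoter has it on neither strand. RefSeq gave 10 promoters for 7 members, and CCAAT occurred on either strand in 3 of them, the third being Pax8 at 57 bases, against 33.8% of all 32851 promoters of this length. Of other motifs searched on either strand, the TATA motif TATAAA was found in 12.4% of all promoters and in none of the 10. The Sox motif AACAAT was found in 9.42% of all promoters and in none of the 10, and so was the homeodomain motif TAATTA, which 4.84% of all promoters hold. RefSeq has another Pax6 start, and the 250 bases before it, at chr2:105682213-105682462, lie in an annotated exon, hold no CCAAT and are 47.6% G and C. G and C made up 60.8% of the Pax6 promoter shown, 58.8% of the Pax1 promoter and 43.6% of the Pax9 promoter, against a median of 52.4% over all promoters. A match is a description of these letters and not of a bound site.

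Total counts ran from 7025188 to 9069005 over the 32 libraries, and levels are given in CPM, counts relative to the library total, scaled by TMM over all of them. The kit yields a tag per captured transcript, so levels were not divided by gene length and are compared for a gene between libraries. A single identifier without a symbol held 17.3 to 22.8% of the counts in Commd10Null libraries of all stages, against 15.0 to 19.8% in WT E8.5 libraries and 2.98 to 8.83% in WT libraries of E9.5 and E10.5. Commd10 itself was higher in Commd10Null than in WT libraries of each stage, at 58.6 to 93.9 CPM against 36.2 to 55.6 CPM over all stages, and the count does not check the genotype labels, because the tags come from transcript ends and the table gives no position of a tag within the gene. The 10 markers of the yolk sac endoderm, a tissue outside the embryo proper, were all detected in every group. Their summed level was 2560 to 4085 CPM in Commd10Null E8.5 libraries against 289 to 2794 CPM in WT E8.5 libraries. At E9.5 it was 171, 569 and 4760 CPM in Commd10Null replicates 1, 2 and 3, against 32.3 to 134 CPM in WT libraries, and at E10.5 it was 54.3 to 113 CPM in Commd10Null libraries, against 1206 CPM in WT replicate 1 and 71.8 to 81.5 CPM in the other WT libraries. The 10 decidua and placenta markers summed to 49.8 to 278 CPM in Commd10Null E8.5 libraries against 5.27 to 57.0 CPM in WT, to 11.6 to 162 CPM against 23.9 to 41.5 CPM at E9.5 and to 44.1 to 60.6 CPM against 21.5 to 49.4 CPM at E10.5, with the trophoblast genes Prl7b1 and Tpbpa among those at 0 in every library of both groups at E8.5. At E10.5, 6 of these 10 had no count in Commd10Null libraries and 7 had none in WT libraries. The 9 blood markers summed to 157 to 2435 CPM in Commd10Null E8.5 libraries against 14.9 to 483 CPM in WT, to 1488 to 10800 CPM against 6901 to 24260 CPM at E9.5 and to 2287 to 3819 CPM against 14410 to 24530 CPM at E10.5. The part of these tissues in the Pax results was not tested.

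Of the 9 Pax genes, 8 passed the filter on low counts in every comparison of the genotypes, and Pax4 in none. Tests of the genotypes are those of edgeR's quasi-likelihood model within a stage, and a gene passed at a Benjamini-Hochberg adjusted p of 0.05 or less over all genes tested. Commd10Null embryos had lower Pax3, Pax6 and Pax7 at each of the 3 stages, lower Pax1 and Pax5 at E9.5, and at E10.5 lower Pax1 but higher Pax5 and Pax9. At E8.5, 3 of the 8 members passed, all lower, where 6.86% of all genes tested passed as lower. At E9.5, 5 of 8 passed, all lower, against 17.4% of all genes tested, and at E10.5, 4 of 8 passed as lower against 21.4% and 2 of 8 as higher against 20.9%. The median log2 fold change of the 8 members was −2.88 at E8.5, −2.82 at E9.5 and −0.77 at E10.5, and that of all genes tested was −0.02, 0.02 and 0.01. In a model of all 32 libraries, which share 1 estimate of the spread, only Pax3 and Pax7 of the 6 passed at E10.5, with adjusted p from edgeR of 0.155 for Pax1, 0.344 for Pax5, 0.226 for Pax6 and 0.444 for Pax9. In bulk RNA of whole embryos, fewer cells of a type and less RNA per cell cannot be told apart. By the study's account, Commd10Null embryos were abnormal and retarded in growth at E8.5, though comparable in size to WT. Those of E9.5 and E10.5 showed increasing degradation and signs of resorption. The study adds that differences after E8.5 need not be tied directly to the loss of COMMD10. Delay and tissue loss go with the genotype in this design, and their part in the Pax differences was not tested.

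**Figure D1:**
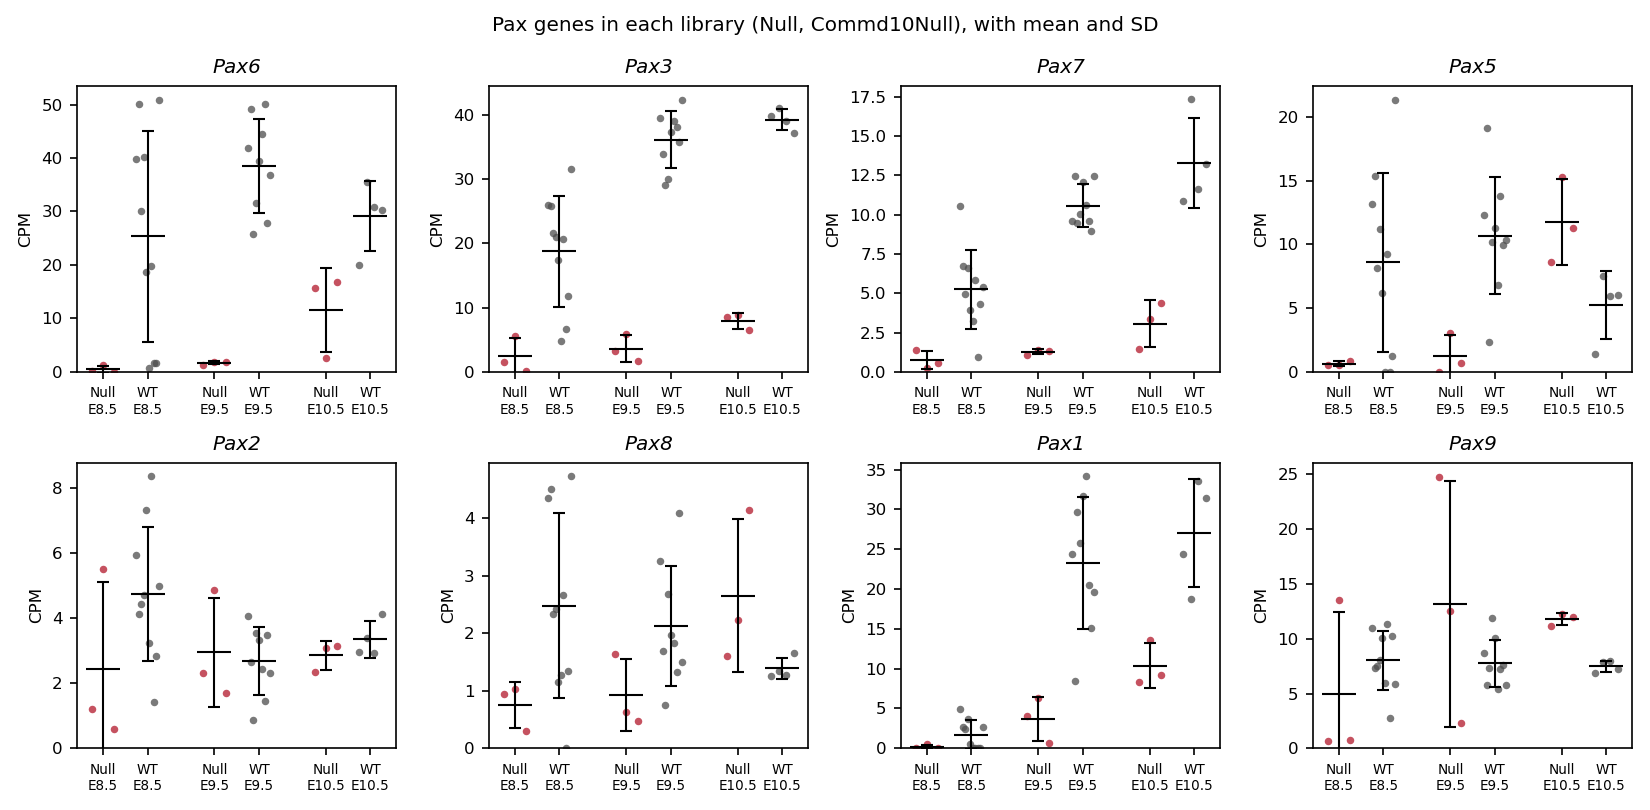
Level of each of 8 Pax genes in every library (CPM, linear axis from 0), with Commd10Null (Null, red) left of WT (grey) at each stage, and bars for the mean and SD of each group. Pax3 at E9.5 lies at 1.69 to 5.88 CPM in Commd10Null libraries and 29.1 to 42.4 CPM in WT libraries, while Pax2 overlaps between the genotypes at every stage.

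Pax6, which patterns the forebrain and the ventral neural tube and without which no eyes form, had the largest differences of the 8 members at E8.5 and E9.5. At E8.5 it was at 0.136, 1.28 and 0 CPM in the Commd10Null libraries, that is at 1, 10 and 0 counts. In the 10 WT E8.5 libraries it ran from 0.705 to 50.9 CPM, with a median of 24.9 CPM. The groups overlapped in WT replicate 6, at 0.705 CPM, WT replicates 8 and 9 lay just above the Commd10Null range at 1.56 and 1.62 CPM, and the other 7 were at 18.7 CPM or more. Here the log2 fold change was −5.65 (SE 1.42, edgeR adjusted p = 0.0165), and it did not pass without Commd10Null replicate 1 or 3 (edgeR adjusted p = 0.0984 and 0.0688).

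At E9.5 Pax6 was at 1.37, 1.79 and 1.93 CPM in the Commd10Null libraries, and at 25.7 to 50.04 CPM (median 39.4) in the 9 WT libraries. Every Commd10Null library thus lay far below every WT library, and the spread among the Commd10Null libraries was small, with a log2 fold change of −4.46 (SE 0.29, edgeR adjusted p = 4.95e-08). At E10.5 Pax6 was at 15.6, 2.60 and 16.7 CPM in the Commd10Null libraries, against 20.0, 35.4, 30.9 and 30.3 CPM in the WT libraries. Commd10Null replicate 2 lay a little above the Commd10Null range of E9.5 while replicates 1 and 3 came close to the lowest WT library, and the genotypes did not overlap. The log2 fold change at E10.5 was −1.32 (SE 0.38, edgeR adjusted p = 0.0128), and the Wald test of DESeq2 did not pass it (adjusted p = 0.0927).

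Pax3 and Pax7, which specify dorsal neural cells, neural crest and muscle precursors of the somite, fell at all stages. Pax3 was at 1.49, 5.64 and 0.147 CPM in the Commd10Null E8.5 libraries, against 4.79 to 31.6 CPM (median 20.8) in the WT E8.5 libraries. Only the highest Commd10Null library reached the lowest WT library, replicate 6. In the test, the log2 fold change was −2.93 (SE 0.67, edgeR adjusted p = 0.0111), and without Commd10Null replicate 1 it did not pass (−2.67, edgeR adjusted p = 0.0765). At E9.5 Pax3 was at 3.28, 5.88 and 1.69 CPM in the Commd10Null libraries, against 29.1 to 42.4 CPM (median 37.3) in the WT libraries. At E10.5 it was at 8.47, 8.90 and 6.54 CPM in the Commd10Null libraries, against 39.8, 41.1, 39.1 and 37.1 CPM in the WT libraries. The groups were far apart at both stages, with log2 fold changes of −3.29 (SE 0.28, edgeR adjusted p = 5.63e-07) at E9.5 and −2.29 (SE 0.15, edgeR adjusted p = 3.22e-08) at E10.5.

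Pax7, which keeps the precursors of muscle stem cells, overlapped between the genotypes at E8.5 only. At that stage it was at 1.36, 0.256 and 0.586 CPM in the Commd10Null libraries, against 0.959 to 10.6 CPM (median 5.15) in the WT libraries. The lowest WT library, replicate 8, lay within the Commd10Null range, and the other 9 lay above it. The log2 fold change was −2.83 (SE 0.64, edgeR adjusted p = 0.00996). At E9.5 Pax7 was at 1.09, 1.41 and 1.33 CPM in the Commd10Null libraries, against 8.94 to 12.5 CPM (median 10.0) in the WT libraries. At E10.5 it was at 1.47, 3.34 and 4.40 CPM in the Commd10Null libraries, against 10.9, 17.3, 11.7 and 13.2 CPM in the WT libraries. No library of one genotype reached the other at either stage, with log2 fold changes of −3.00 (SE 0.23, edgeR adjusted p = 3.03e-07) at E9.5 and −2.10 (SE 0.31, edgeR adjusted p = 9e-05) at E10.5.

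Pax5, with Pax2 and Pax8 a gene of the midbrain-hindbrain boundary and in later life of B cells, had a genotype difference of opposite sign at E10.5. At E8.5 it was at 0.543, 0.512 and 0.879 CPM in the Commd10Null libraries, against 0 to 21.4 CPM (median 8.68) in the WT libraries. WT replicates 6 and 8 had no count and replicate 9 had 1.22 CPM, the same 3 libraries in which Pax6 was low, and the remaining WT libraries were at 6.15 CPM or more. A count of 0 allows up to 0.316 to 0.440 CPM in a library, from 3 counts, and covers counting error only. For this difference the log2 fold change of −3.72 (SE 1.27) did not pass (edgeR adjusted p = 0.0594), although it passed without WT replicate 6, 8 or 9 (edgeR adjusted p = 0.0198 to 0.0448), with no filter on low counts (0.0317), in the model of all 32 libraries (0.0168) and in the Wald test of DESeq2 (adjusted p = 0.032).

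At E9.5 Pax5 was at 0, 3.07 and 0.724 CPM in the Commd10Null libraries, against 2.36 to 19.2 CPM (median 10.4) in the WT libraries. The groups overlapped only in WT replicate 3, the lowest, and the log2 fold change was −3.03 (SE 0.70, edgeR adjusted p = 0.00317), or −4.73 without Commd10Null replicate 2, the highest of its group. At E10.5 Pax5 was at 8.60, 15.3 and 11.3 CPM in the Commd10Null libraries, against 1.37, 7.54, 5.95 and 6.03 CPM in the WT libraries. Every Commd10Null library lay above every WT library, by little in the closest pair. The log2 fold change was 1.18 (SE 0.38, edgeR adjusted p = 0.0228), and without Commd10Null replicate 2, the highest, it did not pass (0.94, edgeR adjusted p = 0.0975). WT replicate 1, the lowest of its group in Pax5 and Pax6, is the WT E10.5 library with the high yolk sac level, and without it the value for Pax5 was 0.84 (edgeR adjusted p = 0.0177).

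Pax2, which acts in the ear, the optic stalk and the kidney line, did not pass at any stage. It was at 1.22, 5.51 and 0.586 CPM in the Commd10Null E8.5 libraries against 1.44 to 8.35 CPM in WT, at 2.32, 4.86 and 1.69 CPM against 0.871 to 4.07 CPM at E9.5, and at 2.33, 3.09 and 3.14 CPM against 2.91 to 4.14 CPM at E10.5. The groups overlapped at each stage, and the log2 fold changes were −0.96 (SE 0.57), 0.17 (SE 0.42) and −0.22 (SE 0.34), with adjusted p from edgeR of 0.275, 0.775 and 0.639. Without Commd10Null E8.5 replicate 2 the value at E8.5 was −2.36 and passed (edgeR adjusted p = 0.0285).

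Pax8, a regulator of thyroid and kidney formation, had the fewest counts of the 8 tested members, 495 over the 32 libraries. It was at 0.950, 1.02 and 0.293 CPM in the Commd10Null E8.5 libraries against 0 to 4.73 CPM in WT, and at 1.64, 0.639 and 0.482 CPM against 0.746 to 4.10 CPM at E9.5. At E10.5 it was at 1.60, 2.22 and 4.15 CPM in the Commd10Null libraries, against 1.27, 1.35, 1.28 and 1.65 CPM in the WT libraries. Only Commd10Null replicate 1 fell within the WT range there. The log2 fold changes of −1.69 (SE 0.86), −1.17 (SE 0.54) and 0.94 (SE 0.45) had adjusted p from edgeR of 0.196, 0.0990 and 0.109, so none passed. Without Commd10Null E9.5 replicate 1 the value at E9.5 was −1.86 and passed (edgeR adjusted p = 0.0279).

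**Figure D2:**
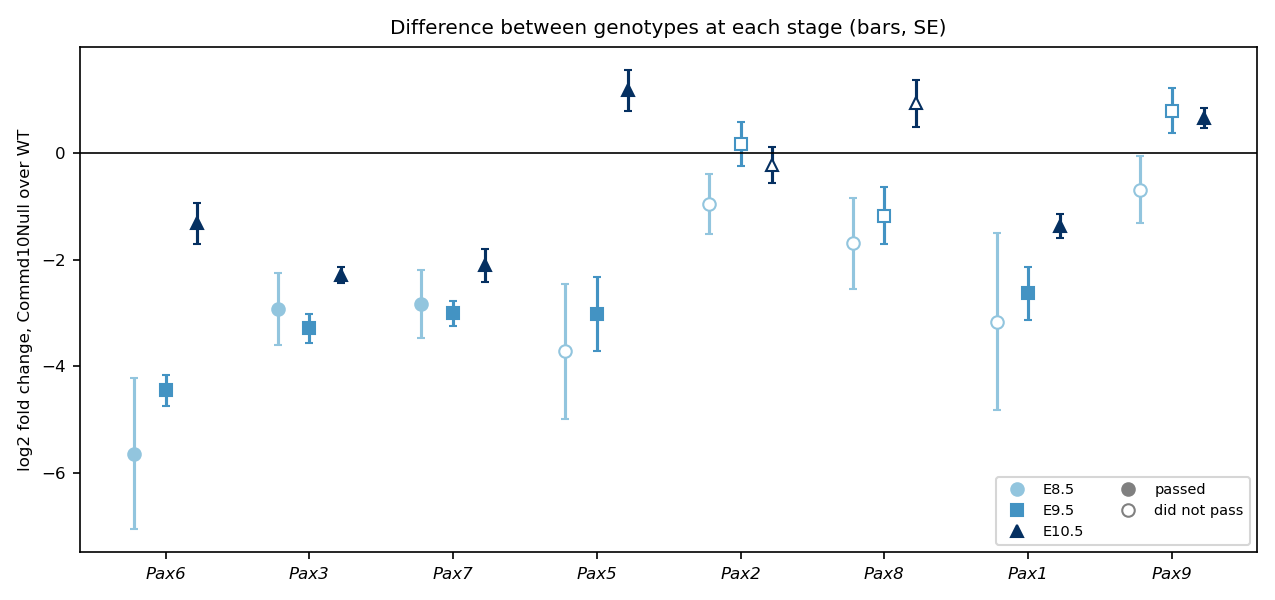
Log2 fold change of Commd10Null over WT for each of 8 Pax genes at E8.5 (circles), E9.5 (squares) and E10.5 (triangles), with SE bars, filled where the gene passed. Pax5 lies at −3.72, −3.03 and 1.18, and Pax6 at −5.65, −4.46 and −1.32.

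Pax1, which drives sclerotome cells towards cartilage of the vertebral bodies, had few counts at E8.5. It had 0, 4 and 0 counts in the Commd10Null E8.5 libraries, against 0 to 37 counts in the WT libraries, with no count in WT replicates 6, 7, 8 and 9. With all libraries, the log2 fold change of −3.17 (SE 1.66) did not pass (edgeR adjusted p = 0.212). Without Commd10Null replicate 2 that group had no count left, and the test did not pass either (edgeR adjusted p = 0.157). At E9.5 Pax1 was at 4.10, 6.26 and 0.724 CPM in the Commd10Null libraries, against 8.45 to 34.2 CPM (median 24.4) in the WT libraries. At E10.5 it was at 8.35, 13.6 and 9.18 CPM in the Commd10Null libraries, against 24.4, 18.8, 33.6 and 31.4 CPM in the WT libraries. The genotypes did not overlap at either stage, and the log2 fold changes were −2.63 (SE 0.50, edgeR adjusted p = 0.000815) and −1.37 (SE 0.22, edgeR adjusted p = 0.000205).

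Pax9, which acts in the sclerotome, the pharyngeal pouches and later the teeth and palate, did not follow Pax1. At E8.5 it was at 0.679, 13.6 and 0.733 CPM in the Commd10Null libraries, against 2.76 to 11.4 CPM (median 7.78) in the WT libraries. Commd10Null replicate 2 lay above the whole WT range and the other 2 below it. The log2 fold change of −0.68 (SE 0.63) did not pass (edgeR adjusted p = 0.504), and without replicate 2 it was −3.47 (edgeR adjusted p = 0.00306). At E9.5 Pax9 was at 24.7, 12.5 and 2.29 CPM in the Commd10Null libraries, against 5.37 to 11.9 CPM (median 7.34) in the WT libraries. Replicates 1 and 2 lay above all WT libraries, and replicate 3, the library with the high yolk sac level, below them. Over all libraries the log2 fold change of 0.80 (SE 0.42) did not pass (edgeR adjusted p = 0.152), and without replicate 3 it was 1.29 (edgeR adjusted p = 0.00147).

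At E10.5 Pax9 was at 11.2, 12.2 and 11.9 CPM in the Commd10Null libraries, against 6.86, 7.88, 7.93 and 7.21 CPM in the WT libraries. Both groups were tight and did not overlap, with a log2 fold change of 0.67 (SE 0.18, edgeR adjusted p = 0.00978). The 3′ end of Pax9, at position 56712822 of chromosome 12 in GRCm38, lies within Slc25a21 on the opposite strand. The 3′ end of Slc25a21 is at 56712634, so the 3′ ends of the 2 genes overlap. Without the strand setting of the counting the tags of the pair cannot be told apart. Slc25a21 itself had 2 to 18 counts in Commd10Null E10.5 libraries and 22 to 27 counts in WT E10.5 libraries, against 91 to 99 and 61 to 70 counts of Pax9.

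Between the genotypes, no member had every Commd10Null library below every WT library at E8.5, where 4.33% of all genes tested did. At E9.5, 4 members did, Pax1, Pax3, Pax6 and Pax7, against 12.1% of all genes tested, and at E10.5 the same 4 did, against 23.0%. Pax5 and Pax9 were at E10.5 above in every library, against 22.5% of all genes tested. Pax4 had 1 count in all, in WT E9.5 replicate 6, and the absence of counts in the 3 Commd10Null groups allows up to 0.124 to 0.136 CPM over a group, from 3 counts.

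**Figure D3:**
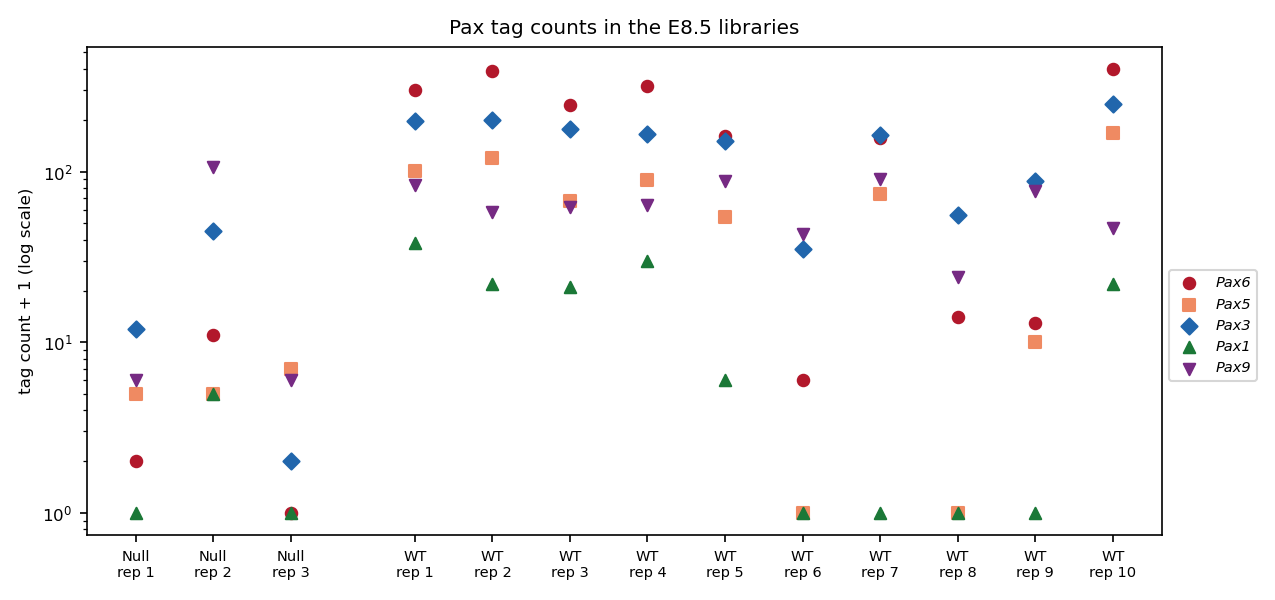
Tag counts plus 1 (log axis) of 5 Pax genes in each E8.5 library, with the 3 Commd10Null libraries left of the 10 WT libraries, where a count of 0 lies at the bottom. In WT replicates 6, 8 and 9 Pax6 has 5, 13 and 12 counts, against 157 or more in the other WT libraries, and Commd10Null replicate 2 has 106 counts of Pax9.

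The WT E8.5 libraries differed among themselves in Pax6 and Pax5, and also in Pax3, Pax2 and Pax7. In WT replicates 6, 8 and 9, Pax5 had 0, 0 and 9 counts, against 53 to 167 in the other 7. Pax1 and Pax8 did not set these libraries apart, since Pax1, with 0 counts in all 3, also had 0 in replicate 7 and 5 in replicate 5, and Pax8, with 9, 0 and 10 counts, also had 10 in replicate 5. Pax3 had 34, 55 and 87 counts in these 3, against 150 to 247 in the other 7. Pax2 had 23, 12 and 21 counts against 32 to 66, and Pax7 had 23, 8 and 32 counts against 34 to 80. Pax9 had 42, 23 and 76 counts against 46 to 90, so that replicate 9 lay within the range of the other 7. Pax6 had 157 to 398 counts in the other 7. The summed level of the 22 neural plate and brain markers was 400, 162 and 506 CPM in these 3 libraries, which is 3 of the 4 lowest of the 10, and 218 to 252 CPM in the Commd10Null E8.5 libraries. The yolk sac sum was 2794, 1924 and 1865 CPM in WT replicates 6, 8 and 9, replicate 6 being the highest of the 10, and its part in these Pax levels was not tested.

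The neural and sclerotome members were set against each other by sums within a library. The neural sum of Pax6, Pax2, Pax5 and Pax8 was 1.76 to 8.33 CPM in Commd10Null E8.5 libraries against 3.00 to 82.0 CPM in WT, 4.82 to 10.4 CPM against 29.7 to 72.7 CPM at E9.5, and 23.2 to 35.3 CPM against 25.6 to 47.7 CPM at E10.5. The sclerotome sum of Pax1 and Pax9 was 0.679 to 14.1 CPM in Commd10Null E8.5 libraries against 2.76 to 15.8 CPM in WT, 3.02 to 28.8 CPM against 14.2 to 41.7 CPM at E9.5, and 19.5 to 25.8 CPM against 26.7 to 41.5 CPM at E10.5. At E9.5 the neural sums were thus apart between genotypes and the sclerotome sums overlapped. Pax1 alone did not overlap there, at 0.724 to 6.26 CPM in Commd10Null libraries against 8.45 to 34.2 CPM in WT. At E10.5 the sclerotome sums were apart, and the neural sums overlapped only in WT replicate 1, the library with the high yolk sac level. It was at 25.6 CPM, and the other WT libraries were at 41.0 to 47.7 CPM. The log2 ratio of the neural to the sclerotome sum, with 1 CPM added to each, was 1.20, −0.69 and 0.67 in the Commd10Null E8.5 libraries against a range of −0.49 to 3.12 in WT. It was −2.24, −0.80 and 0.54 at E9.5 against −0.31 to 2.27, and 0.50, −0.15 and 0.72 at E10.5 against −0.27 to 0.82. The groups overlapped in this ratio at every stage, with 2 of the 3 Commd10Null E9.5 libraries below all 9 WT E9.5 libraries, and the ratio was not tested. The log2 ratio of Pax6 to Pax3, with 1 CPM added to each, was 0.81, −1.46 and 1.23 in the Commd10Null E10.5 libraries against −0.95 to −0.21 in WT, with Commd10Null replicate 2 below the WT range and replicates 1 and 3 above it.

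**Figure D4:**
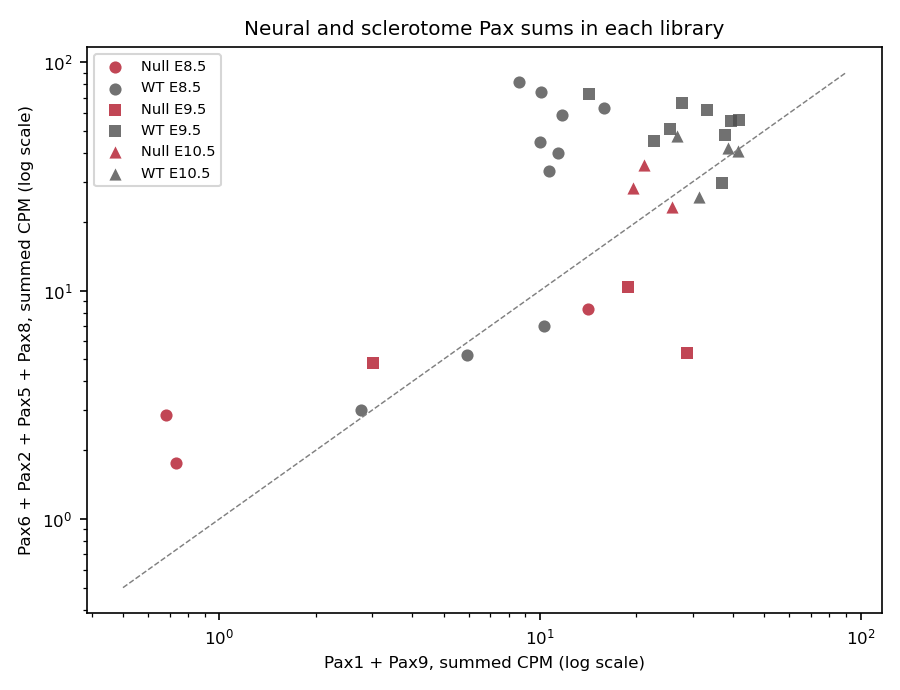
Summed CPM of Pax6, Pax2, Pax5 and Pax8 (y axis, log scale) against summed CPM of Pax1 and Pax9 (x axis, log scale) in each of the 32 libraries, Commd10Null in red and WT in grey, with marker shapes for the stages and a dashed line of equal sums. Commd10Null E9.5 libraries have neural sums of 4.82 to 10.4 CPM, below all 9 WT E9.5 libraries, and Commd10Null E10.5 libraries have sums of 23.2 to 35.3 CPM.

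Whether the genotype difference itself changed with the stage was tested as a contrast in an edgeR model of all 32 libraries. Pax5 passed from E8.5 to E10.5, where the difference rose by 4.89 on the log2 scale (SE 1.37, edgeR adjusted p = 0.0116), and Pax6 rose by 4.31 (SE 1.38, edgeR adjusted p = 0.0268). These 2 of 8 members were called as higher where 10.3% of all genes tested were. Pax6 did not pass without Commd10Null E8.5 replicate 1 or 3, or without Commd10Null E10.5 replicate 1 or 3 (edgeR adjusted p = 0.0602 to 0.0856). Without Commd10Null E8.5 replicate 2, Pax9 and Pax2 passed too, at 4.14 and 2.14 (edgeR adjusted p = 0.000307 and 0.0421). Pax8, at 2.61, did not pass (edgeR adjusted p = 0.0575). It did in DESeq2 and in edgeR without WT E8.5 replicate 8 or without Commd10Null E9.5 replicate 1 or 3. From E9.5 to E10.5, a contrast added after the values had been seen, Pax5 rose by 4.23 (SE 1.28, edgeR adjusted p = 0.0375), the only 1 of 8 members called as higher, against 3.63% of all genes tested, and this call was lost when any 1 of 8 libraries was left out (edgeR adjusted p = 0.0534 to 0.0821). Pax6 was at 3.16 in that contrast (edgeR adjusted p = 0.0888). From E8.5 to E9.5 no member passed in edgeR, where 11.1% of all genes tested did, none had an unadjusted p under 0.05, and DESeq2 passed 0.

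Among WT embryos alone, E9.5 differed from E8.5 most in Pax1. It was at 8.45 to 34.2 CPM in the 9 WT E9.5 libraries and at 0 to 4.88 CPM in the 10 WT E8.5 libraries, with no overlap, as in 6.94% of all genes tested, and a log2 fold change of 3.75 (SE 0.48, edgeR adjusted p = 9.52e-07). Pax3 rose by 0.93 (SE 0.23, edgeR adjusted p = 0.00164) and Pax7 by 0.99 (SE 0.24, edgeR adjusted p = 0.00121) on the log2 scale, and Pax2 fell by 0.84 (SE 0.29, edgeR adjusted p = 0.0181). These are 3 of 8 members higher against 25.3% of all genes tested, and 1 of 8 lower against 25.9%. Pax6 at 0.59 (SE 0.46), Pax5 at 0.30 (SE 0.51), Pax8 at −0.24 (SE 0.42) and Pax9 at −0.07 (SE 0.21) did not pass. From E9.5 to E10.5 Pax5 alone passed in WT embryos, at −1.04 (SE 0.37, edgeR adjusted p = 0.0433), 1 of 8 members lower against 13.4% of all genes tested. That call was lost in 15 alternatives, with adjusted p of 0.0502 to 0.457, and without WT E10.5 replicate 1 the value was −0.72 (edgeR adjusted p = 0.148). Pax1, Pax2, Pax3, Pax7 and Pax9 lay between −0.05 and 0.32 on the log2 scale and did not pass, and Pax6 at −0.40 (SE 0.17) and Pax8 at −0.60 (SE 0.36) did not pass.

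In Commd10Null embryos no member passed between stages in edgeR, with 3 libraries in each group. From E8.5 to E9.5, 4 members were tested and Pax6, at 1.77 (SE 1.15), had every E9.5 library above every E8.5 library, as had 6.14% of all genes tested. No gene passed there in edgeR, where 661 of 12856 genes had an unadjusted p under 0.05, and DESeq2 passed 66 genes but no member. From E9.5 to E10.5, 8 members were tested and 4 of 12905 genes passed, 0.031%, with 1409 genes at an unadjusted p under 0.05, while DESeq2 passed 375 genes. Pax1, Pax3, Pax5, Pax6 and Pax7 had every E10.5 library above every E9.5 library, 5 of 8 members against 11.1% of all genes tested. The log2 fold changes were 3.20 (SE 0.96) for Pax5 and 2.77 (SE 0.70) for Pax6, with adjusted p from edgeR of 0.305 and 0.233, and the Wald test of DESeq2 passed these 2 members (adjusted p = 0.00753 and 0.00626). Pax9 was at −0.15 (SE 0.67) and Pax2 at −0.04 (SE 0.59).

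Over the groups, Pax6 had its highest median in WT E9.5 libraries, 39.4 CPM, followed by WT E10.5 at 30.6 CPM, WT E8.5 at 24.9 CPM, Commd10Null E10.5 at 15.6 CPM, Commd10Null E9.5 at 1.79 CPM and Commd10Null E8.5 at 0.136 CPM. Of the neighbours in this order, WT E9.5 and WT E10.5 did not differ beyond their spread in the test, WT E10.5 lay within the range of WT E8.5, and Commd10Null E10.5 overlapped WT E8.5. The 3 Commd10Null groups did not overlap one another. Pax5 had another order, with Commd10Null E10.5 the highest at a median of 11.3 CPM, then WT E9.5 at 10.4 CPM, WT E8.5 at 8.68 CPM, WT E10.5 at 5.99 CPM, Commd10Null E9.5 at 0.724 CPM and Commd10Null E8.5 at 0.543 CPM. The first 3 of these overlapped one another, WT E10.5 overlapped both other WT groups, and the Commd10Null E8.5 and E9.5 groups overlapped. Pax9 medians ran from 0.733 CPM in Commd10Null E8.5 to 12.5 CPM in Commd10Null E9.5 libraries, and the 3 WT groups were at 7.78, 7.34 and 7.54 CPM from E8.5 to E10.5.

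Other genes of the territories that Pax genes mark were counted from lists, which were chosen with earlier results of these data known. The lists share genes, so their counts are not independent. For example, En1, En2, Wnt1, Fgf8 and Gbx2 are in both the neural and the boundary list. Foxc2 and Meox2 are in both the dermomyotome and the sclerotome list. Of the neural plate and brain list, 11 of 20 tested genes were lower at E8.5 and none higher, 14 of 21 lower at E9.5 and none higher, and 7 of 22 lower and 2 higher at E10.5. Of all genes tested, 6.86, 17.4 and 21.4% were lower at the 3 stages in turn, and 6.73, 20.2 and 20.9% were higher, and the same shares stand against each list below. In the neural list the median log2 fold change was −2.12, −2.24 and −0.25, against −0.02, 0.02 and 0.01 over all genes tested. At most 2 tested genes of a list had no count in 1 of the groups of a stage. Set to their bound from 3 counts over the group, they left this and every other list median below as it was. A median is little moved by so few values at its ends, so this says little about those genes. Sox1, Sox3 and Sox2, which keep cells in a neural progenitor state, had log2 fold changes of −3.37, −1.44 and −1.36 at E8.5 (edgeR adjusted p = 0.00898, 0.00947 and 0.0164). Msx3, a gene of the dorsal neural tube, was at 0.273 to 0.511 CPM in Commd10Null E9.5 libraries against 10.7 to 23.4 CPM in WT. Neurog2, which starts neuron formation, had no count in Commd10Null E9.5 libraries, against 9.06 to 20.9 CPM in WT. At E10.5 Neurog2 was at 1.26 to 2.09 CPM in Commd10Null libraries against 18.5 to 26.0 CPM in WT.

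Of the dermomyotome and early muscle list, the territory of Pax3 and Pax7 in the somite, 7 of 13 tested genes were lower at E8.5, 9 of 15 at E9.5 and 8 of 13 at E10.5, with 0, 1 and 0 higher, where 6.86, 17.4 and 21.4% of all genes were lower, and a median log2 fold change of −1.11, −1.59 and −1.84. Meox1 and Tcf15, which act in the forming somite, had log2 fold changes of −3.39 and −3.42 at E9.5 (edgeR adjusted p = 3.03e-07 and 3.58e-07). Lbx1, a gene of migrating muscle precursors and dorsal neurons, had no count in Commd10Null E9.5 libraries against 2.48 to 5.66 CPM in WT. Of the sclerotome list, the territory of Pax1 and Pax9, 4 of 9 tested genes were lower at E8.5, 7 of 9 at E9.5 and 4 of 9 at E10.5, with 0, 1 and 1 higher against those shares, and a median of −1.40, −1.20 and −0.11. Uncx, a gene of the caudal sclerotome, was at 0 to 0.362 CPM in Commd10Null E9.5 libraries against 20.8 to 42.8 CPM in WT. Tbx18, of the cranial side of the somite, was at 0.820 to 3.96 CPM against 16.5 to 22.9 CPM there. Ptch1, the hedgehog receptor, ran the other way at E10.5, at 179 to 189 CPM in Commd10Null libraries against 42.6 to 59.2 CPM in WT, a log2 fold change of 1.89 (edgeR adjusted p = 1.45e-08).

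The lists around Pax2, Pax5 and Pax8 were mixed. Of the otic and midbrain-hindbrain boundary list, 3 of 10 tested genes were lower and 1 higher at E8.5, 5 of 10 lower and 2 higher at E9.5, and 2 of 11 lower and 3 higher at E10.5, with a median log2 fold change of −0.96, −0.92 and 0.05. Against all genes, the counts higher at E9.5 (20.2%) and those at E10.5 (21.4% lower, 20.9% higher) lay near the background. En2, expressed with Pax5 at the boundary, was at 0 to 0.965 CPM in Commd10Null E9.5 libraries against 9.45 to 21.2 CPM in WT. Lmx1b fell at E10.5, at 1.76 to 4.33 CPM in Commd10Null libraries against 21.2 to 32.0 CPM in WT. Sall4, a gene of early embryonic cells, rose at E10.5 by 1.85 on the log2 scale (edgeR adjusted p = 7.79e-08). Of the intermediate mesoderm and kidney list, 0 of 11 tested genes were lower and 1 higher at E8.5, 2 of 12 lower and 6 higher at E9.5, and 3 of 12 lower and 4 higher at E10.5, with a median of −0.63, 0.03 and −0.05. The counts lower at E9.5 and E10.5 lay near the 17.4 and 21.4% of all genes. Wt1, needed for the kidney and gonad, was the gene higher at E8.5, by 2.09 on the log2 scale (edgeR adjusted p = 0.0342). Emx2 was lower at E10.5, at 0.247 to 3.32 CPM in Commd10Null libraries against 17.8 to 24.2 CPM in WT. Wt1 was lower too at that stage, by 1.92 on the log2 scale (edgeR adjusted p = 0.000502). Of the 4 genes higher at E10.5, Ret and Sall1 rose by 1.96 and 1.13 (edgeR adjusted p = 4.89e-05 and 1.5e-05). Among the 6 higher at E9.5 were Gata3 and Cited1, by 1.25 and 2.17 (edgeR adjusted p = 7.35e-06 and 0.000353).

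Of the pharyngeal pouch and thyroid list, the endoderm side of Pax1, Pax8 and Pax9, 1 of 7 tested genes was lower at E8.5, 4 of 8 were lower and 2 higher at E9.5, and 1 of 8 was lower and 3 higher at E10.5, with a median log2 fold change of −1.21, −1.15 and −0.04. The count higher at E9.5 lay near the 20.2% of all genes, and that lower at E10.5 was below 21.4%. The 3 that rose at E10.5 were Foxa2, a regulator of endoderm and floor plate, Hhex, of foregut and thyroid, and Tbx1, of the pharyngeal arches, with log2 fold changes of 1.62, 1.89 and 1.48 (edgeR adjusted p = 6.12e-06, 6.17e-06 and 1.84e-05). At E9.5 Hhex and Foxa2 were higher as well, Hhex at 10.8 to 42.6 CPM in Commd10Null libraries against 4.46 to 5.80 CPM in WT and Foxa2 at 44.9 to 91.95 CPM against 23.3 to 35.2 CPM, with log2 fold changes of 2.27 and 1.18 (edgeR adjusted p = 1.29e-05 and 0.000107). Nkx2-1, which marks the thyroid bud, lung and ventral forebrain, had no count in Commd10Null E9.5 libraries against 1.11 to 3.66 CPM in WT. Of the endocrine pancreas list around Pax4, 1 of 5 tested genes was lower at E8.5, 5 of 7 at E9.5 and 4 of 8 at E10.5, with none higher at any stage, against 6.86, 17.4 and 21.4% of all genes lower, and a median of −1.64, −2.96 and −1.98. Neurod1 and Insm1, which also act in neurons, were at 0 to 0.383 CPM and 0.137 to 0.603 CPM in Commd10Null E9.5 libraries, against 10.1 to 19.5 CPM and 5.71 to 12.9 CPM in WT.

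Of the yolk sac endoderm list, 1 of 10 tested genes was higher at E8.5, 10 of 10 were higher at E9.5 and 3 of 7 lower at E10.5, against 6.73 and 20.2% of all genes higher and 21.4% lower, with a median log2 fold change of 1.20, 5.82 and −2.23. At E10.5 the yolk sac sum was 1206 CPM in WT replicate 1, while the other WT libraries lay within the Commd10Null range of 54.3 to 113 CPM. Of the decidua and placenta list, 2 of 3, 1 of 2 and 1 of 1 tested genes were higher from the first to the last stage, against 6.73, 20.2 and 20.9% of all genes, with a median of 3.21, 3.69 and 0.75. The only gene tested at E10.5 was Des, and 6 genes of the list had no count in Commd10Null E10.5 libraries. In WT embryos Des rose by 1.60 on the log2 scale from E8.5 to E9.5, while Prl8a2 of the same list fell by 5.57. Of the blood list, 6 of 7 tested genes were higher at E8.5, 2 of 9 lower at E9.5 and 9 of 9 lower at E10.5, against 6.73% of all genes higher and 17.4 and 21.4% lower, with a median of 2.84, −0.50 and −2.51. Without Commd10Null E9.5 replicate 3, the library with the most yolk sac RNA, Pax1, Pax3, Pax5, Pax6 and Pax7 passed as lower at E9.5, while replicates 1 and 2, which remained, had yolk sac sums above the WT range too.

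The genes closest to each member over the 32 libraries were taken by Spearman's rho of log2 CPM (prior count 2) among genes with a mean of at least 5 CPM. The libraries share genotype, stage and composition, so rho describes the whole set and carries no p. Pax3 was closest to Elavl2 (rho = 0.963), Nsg2 (0.946) and Msx3 (0.942), and Pax7 to Elavl2 (0.946), Rprm (0.944) and Syt11 (0.943). Pax6 was closest to Ildr2 (0.864), Zfp41 (0.859) and Ptn (0.845). Pax5 was closest to Fign (0.857), Hip1 (0.855) and Efna5 (0.845), and Pax8 to Fign (0.854), Sall2 (0.813) and Qk (0.806). Pax1 was closest to Emcn (0.938), Top2b (0.935) and Add1 (0.932), while Pax9 was closest to Mef2c (0.832), Myocd (0.742) and Fbn1 (0.722). For Pax2 no gene exceeded Dnajc10 (0.652), followed by Arl5b (0.639) and Chrdl1 (0.638). Among the members themselves, Pax3 and Pax7 had a rho of 0.918, Pax5 and Pax6 of 0.801, Pax3 and Pax6 of 0.787, Pax5 and Pax8 of 0.770, and Pax1 and Pax3 of 0.756.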

How the data were processed

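The authors made the libraries with the QuantSeq 3′ FWD kit from RNA of whole embryos and deposited 1 table of raw counts, with 55414 Ensembl identifiers and 32 libraries. Their methods name BBDuk for trimming, the submitters' processing notes name Trimmomatic 0.35, and both name STAR, with coding regions of mm10 as the target. What counted the tags, on which strand and with which gene models is not given in the sources used. Groups come from the sample labels, and 0 value columns lacked a sample. Symbols were matched for 52081 identifiers and not for 3333, and positions are those of the GRCm38 annotation supplied with the reference tables.

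Total counts were 7025188 to 9069005 (median 7971614.5), and intervals and limits cover counting error only. Libraries of a group differed by a chi-square of 3.00 to 81.6 per gene, so none was a copy of another. Counts were tested with edgeR 4.0.16 in R 4.3.3 (quasi-likelihood test, TMM factors) using only the libraries compared. Genes were kept by the default filter of edgeR (10 counts at the median library size in enough libraries, 15 in total), and adjusted p is Benjamini-Hochberg over all genes tested with a threshold of 0.05. Genotype differences were compared between stages as contrasts in a model of all 32 libraries, of which that of E10.5 against E9.5 was added after the data had been seen. CPM used TMM factors over all 32 libraries, and sums and ratios were formed per library with a pseudocount of 1. The code was tested on simulated data.

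The members and the gene lists were chosen with earlier results of these data known. All 9 members are named, with up to 4 genes of a list by smallest p in the comparison described, and the 3 genes closest in Spearman's rho among genes of at least 5 mean CPM. Wt1 at E10.5 is named besides, for its change of sign. The lists are neural plate and brain, dermomyotome and early muscle, sclerotome, intermediate mesoderm and kidney, otic and midbrain-hindbrain boundary, pharyngeal pouch and thyroid, endocrine pancreas, yolk sac endoderm, decidua and placenta, and blood. Alternatives were RLE factors, library sizes without factors, no filter, a filter of at least 50 counts in 3 libraries, leaving out the most abundant identifier, the replicate number as a block, the Wald test of DESeq2 1.42.0, a model of all 32 libraries, a pseudocount of 0.5 for the ratios, and leaving out each library. Tables and plots used Python 3.11.15, numpy 2.4.6, pandas 2.3.3 and matplotlib 3.10.9. Promoters are from RefSeq on GRCm38.p6.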

Additional observations from a re-analysis of the deposited data

Results flagged for a closer look

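The difference between Commd10Null and WT embryos itself differed between stages for Pax5 and Pax6 in edgeR's test of the contrast over 32 libraries. For Pax5 the log2 difference at E10.5 exceeded that at E8.5 by 4.89 (adjusted p = 0.0116 from edgeR) and that at E9.5 by 4.23 (adjusted p = 0.0375 from edgeR). The contrast with E9.5 was added after the data had been seen, and its call was lost when any 1 of 8 libraries was left out. All 3 Commd10Null libraries were above all 4 WT libraries at E10.5, as in 22.5% of all genes tested, and 2 of the 3 were below all 9 WT libraries at E9.5. For Pax6 the difference at E10.5 exceeded that at E8.5 by 4.31 (adjusted p = 0.0268 from edgeR), a call lost when any 1 of 4 libraries was left out. Every Commd10Null library was below every WT library in Pax6 at E10.5, as in 23.0% of all genes tested. In the model of all 32 libraries the E10.5 difference itself did not pass for Pax5 or Pax6 (edgeR adjusted p = 0.344 and 0.226). Among 24 sets of a member's levels in the WT groups, of 4 to 10 libraries each, no library stood apart from the others by Dixon's criterion, which chance passes in about 1 of 20 groups. The Commd10Null groups, of 3 libraries each, were not tested in this way.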

How the results depend on the processing

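No log2 fold change of a member reversed a call in any alternative, and of 1911 such values 1813 kept their direction and side of the threshold, 31 came to pass, 39 ceased to and 28 changed sign without passing in either fit, such as Pax9 at E9.5, which was −0.05 without Commd10Null replicate 1, and Pax2 at E9.5, which was −0.38 without Commd10Null replicate 2. All 24 alternative medians of the ratios moved less than the spread of the libraries. Between Commd10Null and WT, 3 members passed at E8.5, 5 at E9.5 and 6 at E10.5, and leaving out 1 library gave 1 to 5, 5 to 6 and 5 to 6. The lowest at E8.5 came without Commd10Null replicate 1 and the highest without Commd10Null replicate 2. With 32 libraries in 1 model 2 passed at E10.5, Pax6 being at an adjusted p of 0.226 and Pax1, Pax5 and Pax9 at 0.155, 0.344 and 0.444 in edgeR. Replicates share a number without a stated pairing, and 28 same-number pairs had correlations of −0.12 to 0.16. The replicate block gave 5 members at E8.5 (Pax5 and Pax1 being added, at adjusted p of 0.0002 and 0.0459 in edgeR), 3 at E9.5 (Pax1 and Pax5 at adjusted p of 0.124 and 0.0864 in edgeR), a loss of Pax2 from E8.5 to E9.5 in WT (adjusted p = 0.0634 in edgeR), 0 from E9.5 to E10.5 in WT and 2 in the contrast of E10.5 against E9.5. In WT from E9.5 to E10.5, where 1 member passed, 2 did so without a filter and 0 with at least 50 counts, in DESeq2 or with 32 libraries in 1 model, and 0 to 2 without 1 library. In Commd10Null from E9.5 to E10.5, where 0 passed, 2 did so without a filter and 2 in DESeq2. Without 1 library, the contrast of E9.5 against E8.5 gave 0 to 2 members, that of E10.5 against E8.5 gave 1 to 4 and that of E10.5 against E9.5 gave 0 to 2. Over all genes, 1876 passed at E8.5 and 390 without Commd10Null replicate 1 (989 without replicate 3), 5068 at E9.5 and 610 with the block, 5724 at E10.5 and 3651 with 32 libraries in 1 model, which also gave 1248 in place of 3526 from E9.5 to E10.5 in WT. Within Commd10Null, 0 genes passed from E8.5 to E9.5 and 66 in DESeq2, 565 with 32 libraries and 276 without E9.5 replicate 3, and 4 passed from E9.5 to E10.5, where 0 to 37 did without 1 library (37 without E9.5 replicate 3) and 1 without factors or without the most abundant identifier, 22 with the block, 375 in DESeq2, 288 without a filter and 1554 with 32 libraries. Pax8, and Pax1 at E8.5, rest on few counts. The contrast of E10.5 against E9.5 passed 1158 genes, and 575 to 1955 without 1 library, and that of E9.5 against E8.5 passed 1677, and 1090 without Commd10Null E8.5 replicate 3. The causes of these shifts were not tested.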
